A study of Homo sapiens with 12 samples.

Results

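The genes described are 36 members of the WNT pathway, chosen by name: the receptors, the feedback genes and secreted or surface modulators, the β-catenin destruction complex with the Dishevelled proteins, the nuclear factors, and the secretion factors PORCN and WLS. All 36 symbols were matched to an Ensembl gene among the 60662 genes of the RNA count files, and 34 of them are among the 12224 genes of the series table of ribosome footprints, from which RNF43 and SP5 are absent. The rule uses gene symbols and no measured value, but the members were chosen with earlier results of these data known. Their counts beside the share of all genes are therefore descriptive.

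The samples were HEK293T cells, an established human embryonic kidney line. Cells of one arm received 20 µM STM2457, a small-molecule inhibitor of the m6A methyltransferase METTL3, in 0.2% DMSO for 6 h, and cells of the other arm received 0.2% DMSO alone. Both arms were given an extra 10% of fetal bovine serum 1 h before lysis and 100 µg/ml cycloheximide, which arrests elongating ribosomes, for the last 3 min. The design set out to follow translation after depletion of m6A, a methyl mark on adenosines of mRNA. RNA was measured with 4 poly(A)-selected, strand-specific libraries per arm and ribosome footprints with 2 ribosome profiling libraries per arm. Whether replicates came from separate cultures is not given in the labels, and every p-value is therefore relative to a spread between libraries that may be technical.

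WNT ligands bind a Frizzled receptor together with the co-receptor LRP5 or LRP6. Without a ligand, a complex of AXIN, APC, GSK3 and casein kinase 1 marks β-catenin for degradation; with a ligand, Dishevelled and AXIN are drawn to the receptors, β-catenin builds up, and it acts with TCF and LEF factors in the nucleus. The surface ubiquitin ligases ZNRF3 and RNF43 remove Frizzled receptors, the R-spondin receptors LGR4 and LGR5 restrain those ligases, and AXIN2, NKD1 and DKK1 are induced feedback inhibitors.

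β-catenin acts on its target genes through TCF and LEF factors bound to DNA, so the promoters of SP5 and DKK1 are shown. Among the members searched, only these held a match near the start to either of 2 spellings of the TCF and LEF motif. Other spellings of the motif were not searched. RefSeq windows of 300 bases (250 before and 50 after a start, GRCh38.p14) were found for 27 members, in 35 windows, and were searched on both strands for CTTTGAA and CTTTGAT, 2 spellings of the TCF and LEF motif that cannot match at the same position. Of these 27 members, 2 held a match, SP5 with 3 and DKK1 with 1. FZD2, FZD3, FZD6, FZD7, LRP6, ZNRF3, LGR5, AXIN2 and NKD1 had no window and were not searched. Among all 35116 windows 6.86% held at least 1 match and 0.0256% held 3 or more. A match is a description of letters and not a measured binding site. The 250 bases before each start are given 5′ to 3′ on the plus strand, which is the strand of both genes, with matches in capitals.
SP5 promoter, chr2:170715087-170715336: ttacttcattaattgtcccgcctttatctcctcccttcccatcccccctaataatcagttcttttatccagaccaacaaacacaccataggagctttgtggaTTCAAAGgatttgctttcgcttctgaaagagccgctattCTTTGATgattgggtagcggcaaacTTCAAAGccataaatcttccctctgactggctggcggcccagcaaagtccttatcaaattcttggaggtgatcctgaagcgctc
DKK1 promoter, chr10:52314031-52314280: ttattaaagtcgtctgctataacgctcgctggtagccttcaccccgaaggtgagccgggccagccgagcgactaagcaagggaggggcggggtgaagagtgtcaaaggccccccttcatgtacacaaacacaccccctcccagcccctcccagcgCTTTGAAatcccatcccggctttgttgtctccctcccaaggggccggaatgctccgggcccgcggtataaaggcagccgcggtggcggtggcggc
Neither gene was called changed. SP5, a transcription factor that is a direct WNT target, had 0.0572, 0.140, 0.0846 and 0.194 CPM (counts scaled to library size) with DMSO and 0.183, 0.336, 0.258 and 0.107 CPM with STM2457, too low for the filter, and it was not tested. DKK1, a secreted inhibitor that binds LRP5 and LRP6, had 3.05, 2.91, 3.20 and 3.11 CPM with DMSO and 2.90, 3.26, 3.24 and 3.65 CPM with STM2457. These arms overlapped (log2 fold change 0.09, SE 0.09, edgeR adjusted p = 0.423).

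The RNA libraries held 43291730 to 51645739 counts, with 0.389 to 0.466% of them on spike-in sequences, and the footprint libraries held 3198063 to 4711513 recovered reads. The first principal component of the RNA libraries (61.6% of the variance) separated the arms, and the second (12.1%) separated replicates 1 and 2 from replicates 3 and 4 in both arms. METTL3 RNA, which the inhibitor does not target, was 75.7 ± 6.71 CPM with DMSO and 83.3 ± 6.71 CPM with STM2457 (edgeR adjusted p = 0.104). All 8 of 8 marker genes reported for HEK293T reached 1 CPM, with a summed level of 1029 to 1068 CPM with DMSO and 1135 to 1167 CPM with STM2457. Fibroblast markers reached 1 CPM in 2 of 7 genes (summed 17.6 to 22.1 and 18.1 to 19.8 CPM), blood markers in 1 of 5 with HBB at 0, and epithelial carcinoma markers in 4 of 6 with KRT19 at 0 (summed 66.6 to 69.2 and 54.3 to 55.4 CPM). KRT18 gave most of the counts in the epithelial sum, and its part in any result below was not tested.

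Relative to gene counts, RNA of 7 of the 12 receptors and of ZNRF3, AXIN1 and BCL9 was higher with STM2457. On the same scale, RNA of β-catenin, both GSK3 kinases and the secretion factors was not called changed. All of these unchanged genes except PORCN were called lower with spike-in scaling, as were 47.1% of all genes. Of the 36 members 35 passed the filter on low counts. By edgeR's quasi-likelihood test with Benjamini-Hochberg adjustment over 17807 genes, 14 members were higher at an adjusted p under 0.05, against 26.2% of all genes tested, and 2 were lower, against 21.6%. The other 19 did not pass. At a change of at least 1.5-fold the count was 8 members higher, against 6.88% of all genes, and 0 lower, against 5.54%. The median log2 fold change was 0.09 over the 35 members and 0.003 over all genes. In bulk RNA, fewer cells expressing a gene and less RNA per cell cannot be told apart. The plot of changes by gene gives every member.

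**Figure D1:**
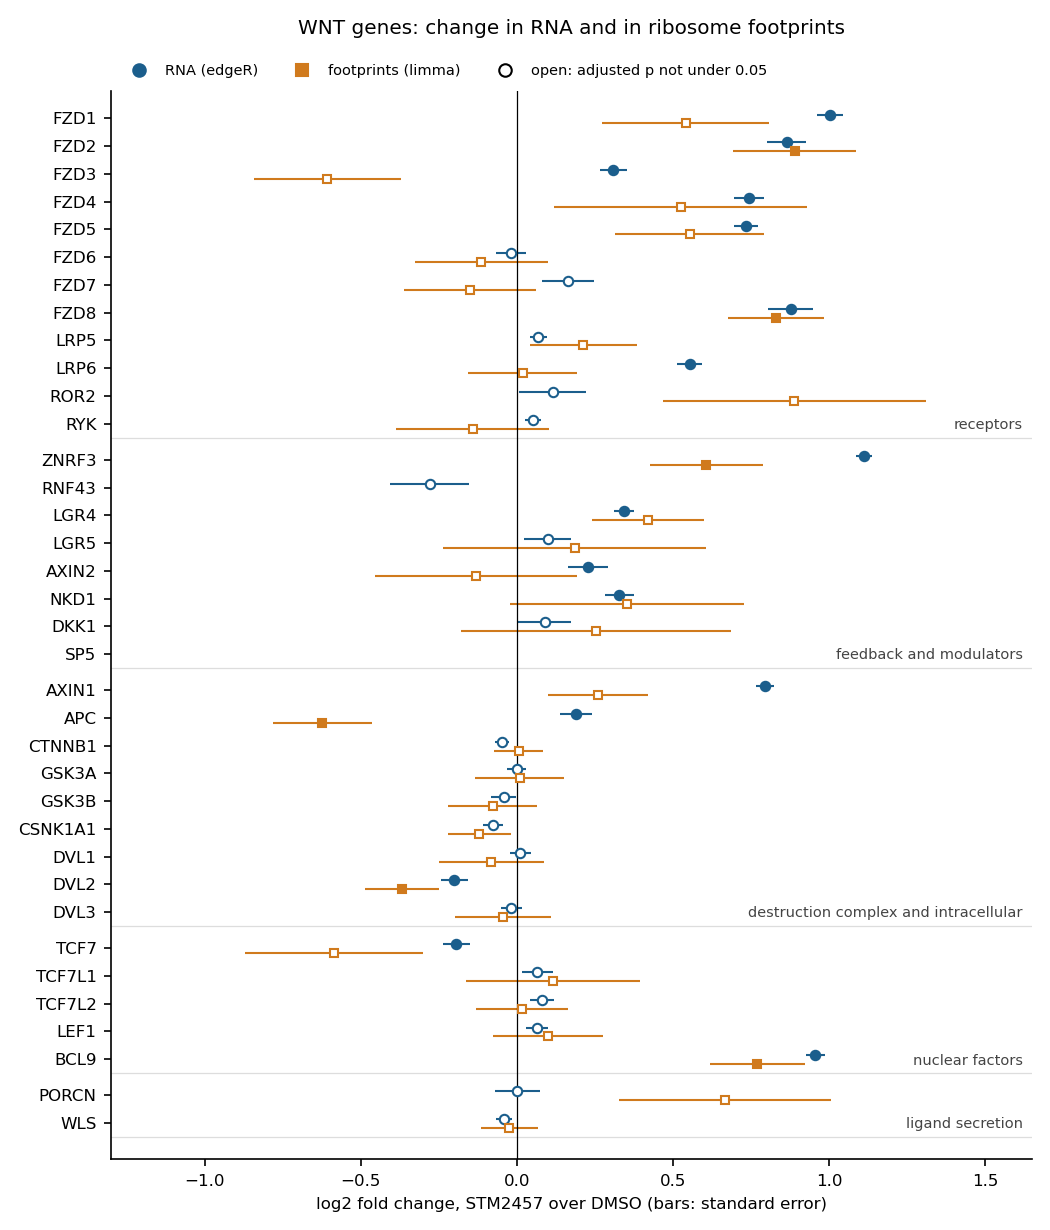
Log2 fold change, STM2457 over DMSO, of RNA (circles) and ribosome footprints (squares) for each WNT gene by role, with standard errors as bars; filled symbols have an adjusted p under 0.05. The filled RNA circles on the right are 7 receptors, 4 feedback genes, AXIN1, APC and BCL9, and SP5 has no point because it was too low to test.

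These changes are relative to the total of gene counts. Scaling by the ERCC spike-ins moved the median gene by -0.19 on the log2 scale (-0.16 without STM2457 replicate 4, the library with the highest spike-in share), and then 10 members were higher, against 12.1% of all genes, and 13 lower, against 47.1%. The members that passed in both scalings as higher were FZD1, FZD2, FZD4, FZD5, FZD8, LRP6, ZNRF3, LGR4, AXIN1 and BCL9. FZD3, AXIN2, NKD1 and APC did not pass with the spike-ins, where APC stood at -0.01; without STM2457 replicate 4 FZD3 and NKD1 passed as higher, for 12 in all. DVL2 and TCF7 were lower in both. With replicates 1 and 2 only, 12 members were higher (24.2% of all genes) and 2 lower (20.1%); with replicates 3 and 4 only, 14 were higher (20.7%) and 2 lower (15.4%).

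The receptors included 12 members, of which 7 rose, 0 fell and 5 did not pass, against 26.2% of all genes higher and 21.6% lower. Their median log2 fold change was 0.43. Of the 8 Frizzled genes, the seven-pass receptors that bind the ligand, 6 rose relative to gene counts; with spike-in scaling 5 remained higher and FZD6 was lower (-0.22, edgeR adjusted p = 0.00495). FZD1 (ENSG00000157240.3) had 14.9, 14.3, 14.5 and 13.7 CPM with DMSO and 29.7, 29.2, 27.8 and 28.5 CPM with STM2457. Every STM2457 library stood above every DMSO library, a 2.0-fold rise (log2 fold change 1.00, SE 0.04, edgeR adjusted p = 1.13e-09). FZD2 (ENSG00000180340.6), which is closely related to FZD1 and FZD7, had 12.9, 11.6, 11.9 and 11.8 CPM with DMSO and 22.7, 19.8, 23.9 and 21.3 CPM with STM2457. The arms did not overlap and the rise was 1.82-fold (log2 0.86, SE 0.06, edgeR adjusted p = 1.5e-07).

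FZD8 (ENSG00000177283.7) and FZD5 (ENSG00000163251.4) form another closely related pair of receptors, and both rose. FZD8 had 23.0, 22.0, 22.1 and 25.5 CPM with DMSO and 45.7, 38.4, 47.0 and 39.0 CPM with STM2457, 1.84-fold higher (log2 0.88, SE 0.07, edgeR adjusted p = 5.19e-07). FZD5 had 31.4, 31.3, 31.0 and 31.7 CPM with DMSO and 55.4, 52.5, 49.6 and 51.0 CPM with STM2457, 1.66-fold higher (log2 0.73, SE 0.04, edgeR adjusted p = 6.2e-09). In both genes the lowest STM2457 library was above the highest DMSO library. On the RNA signal of the series table, which is normalized differently and is not proportional to the gene counts, the FZD5 log2 fold change was smaller, 0.42 (limma adjusted p = 5.15e-05). FZD4 (ENSG00000174804.4), a receptor for Norrin as well as WNT, had 19.9, 18.7, 19.1 and 21.5 CPM with DMSO and 34.2, 32.8, 33.9 and 31.7 CPM with STM2457. It rose 1.67-fold with no overlap (log2 0.74, SE 0.05, edgeR adjusted p = 6.15e-08).

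FZD3, FZD6 and FZD7 moved less. FZD3 was higher by 0.31 on the log2 scale (SE 0.04, edgeR adjusted p = 6.04e-05), with all STM2457 libraries (45.9 to 51.9 CPM) above all DMSO libraries (38.2 to 41.7 CPM). FZD6 and FZD7 had log2 fold changes of -0.02 and 0.16 with overlapping arms, and neither passed. For FZD7 the STM2457 libraries spread from 21.0 to 28.7 CPM, with replicate 3 the highest.

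The 2 co-receptors of the β-catenin branch had different values. LRP6 (ENSG00000070018.9) had 62.3, 62.3, 60.5 and 59.2 CPM with DMSO and 96.0, 91.5, 83.5 and 87.4 CPM with STM2457. The arms were apart, with the STM2457 libraries spread over a wider range, and the rise was 1.47-fold (log2 0.55, SE 0.04, edgeR adjusted p = 2.03e-07). LRP5 had log2 fold change 0.07 (SE 0.03, edgeR adjusted p = 0.0595) with arms that were apart by less than 1 CPM (68.5 to 71.6 CPM with DMSO and 71.7 to 74.5 CPM with STM2457), and it was lower with spike-in scaling (-0.13). The difference between LRP5 and LRP6 was not tested. LRP5L, a partial copy of LRP5 that can share reads with it, had 6.37 ± 0.54 CPM with DMSO and 7.17 ± 0.44 CPM with STM2457 (SD, n = 4 per arm). ROR2 and RYK, tyrosine-kinase-like receptors of WNT ligands, had log2 fold changes of 0.11 and 0.05 and did not pass; ROR2 was at 2.94 to 4.30 CPM.

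**Figure D2:**
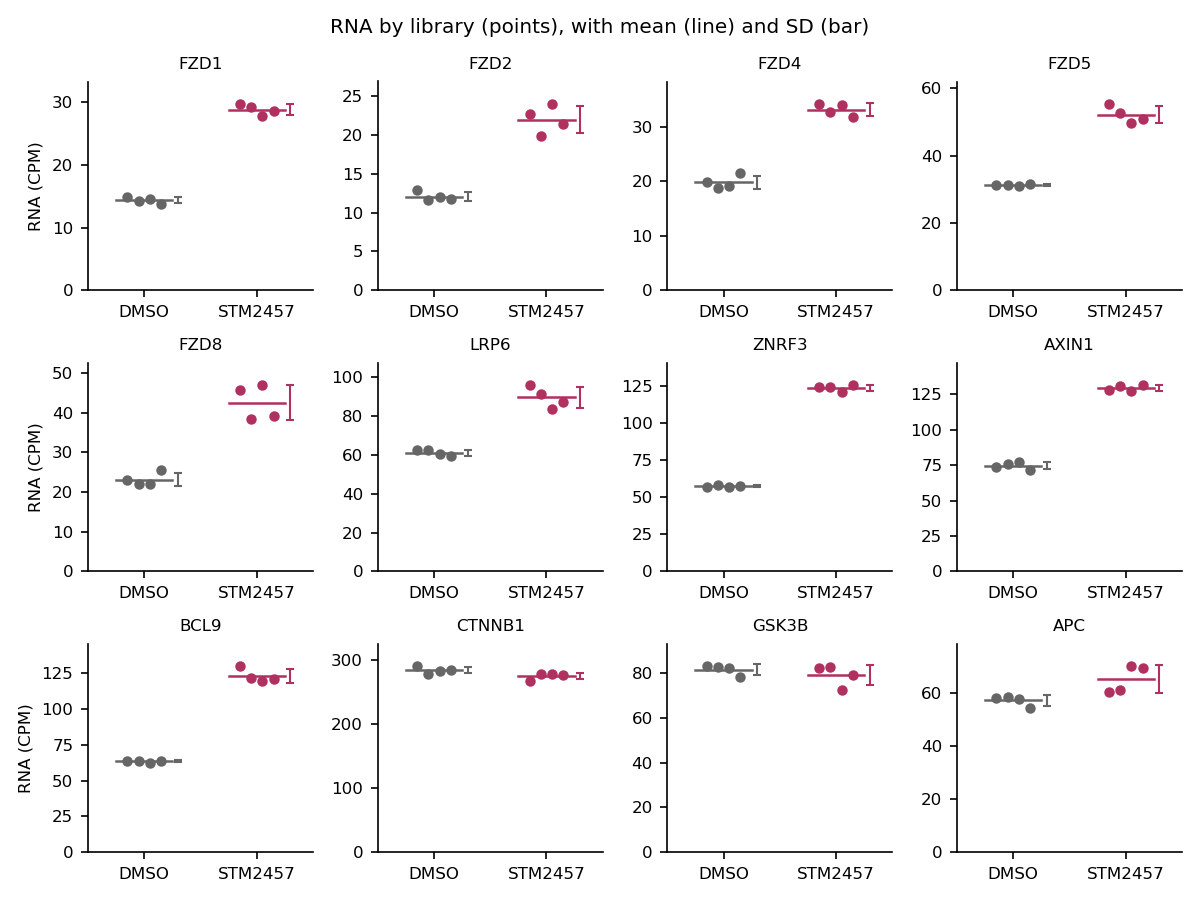
RNA of 12 WNT genes in CPM for each library (points; 4 DMSO and 4 STM2457 libraries), with the mean as a line and the SD as a bar, on axes that start at 0. The arms are apart in every panel except those of CTNNB1 and GSK3B, and the gap is narrowest in APC.

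The feedback genes and modulators numbered 8, of which 7 were tested, 4 rose and 0 fell (26.2% of all genes higher and 21.6% lower). ZNRF3 (ENSG00000183579.15), the ligase that removes Frizzled from the surface, had the largest RNA change of any member. It had 56.6, 58.2, 57.0 and 57.5 CPM with DMSO and 124, 124, 121 and 126 CPM with STM2457. The arms lay far apart with little spread within each, a 2.16-fold rise (log2 1.11, SE 0.03, edgeR adjusted p = 1.12e-11). Its antisense gene ZNRF3-AS1 was near 0 (0.015 CPM with DMSO and 0 with STM2457). RNF43 (ENSG00000108375.12), the related ligase, had few counts: 2.0, 1.80, 1.67 and 1.90 CPM with DMSO and 1.64, 1.16, 1.60 and 1.69 CPM with STM2457. Its highest STM2457 library lay within the DMSO range, and the log2 fold change of -0.28 (SE 0.13, edgeR adjusted p = 0.091) did not pass; it was lower with spike-in scaling (-0.48, edgeR adjusted p = 0.00407).

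AXIN2 (ENSG00000168646.13), a scaffold of the destruction complex and a standard readout of β-catenin activity, had 10.8, 10.0, 9.50 and 10.9 CPM with DMSO and 12.9, 11.1, 12.4 and 11.9 CPM with STM2457. The arms were apart by a small margin, and the rise was 1.17-fold (log2 0.23, SE 0.06, edgeR adjusted p = 0.0105). It did not pass with replicates 1 and 2 only (0.20, edgeR adjusted p = 0.0694) or with spike-in scaling (0.03, edgeR adjusted p = 0.759). NKD1, which binds Dishevelled and restrains signalling, rose by 0.33 on the log2 scale (SE 0.05, edgeR adjusted p = 8.54e-05), and LGR4, an R-spondin receptor, by 0.34 (SE 0.03, edgeR adjusted p = 1.54e-06). In both, all 4 STM2457 libraries were above all 4 DMSO libraries. LGR5, the R-spondin receptor known from stem cells, was at 3.37 to 4.09 CPM over all libraries and did not pass (log2 0.10).

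Of the 9 destruction complex and Dishevelled genes, 2 rose, 1 fell and 6 did not pass (26.2% of all genes higher and 21.6% lower), with a median log2 fold change of -0.02. With spike-in scaling 1 was higher and 7 were lower, where 12.1% of all genes were higher and 47.1% lower. AXIN1 (ENSG00000103126.15), the scaffold that is limiting for the complex, had 74.0, 76.0, 77.1 and 71.6 CPM with DMSO and 128, 131, 127 and 132 CPM with STM2457. The arms were far apart and the rise was 1.74-fold (log2 0.80, SE 0.03, edgeR adjusted p = 3.4e-10). APC (ENSG00000134982.17), the tumour suppressor that binds β-catenin in the complex, had 58.4, 58.8, 57.9 and 54.4 CPM with DMSO and 60.7, 61.3, 70.4 and 69.6 CPM with STM2457. The arms did not overlap, but STM2457 replicates 3 and 4 stood well above replicates 1 and 2. The pooled log2 fold change was 0.19 (SE 0.05, edgeR adjusted p = 0.0082), against 0.04 with replicates 1 and 2 only (edgeR adjusted p = 0.384) and 0.32 with replicates 3 and 4 only (edgeR adjusted p = 0.000174).

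CTNNB1 (ENSG00000168036.18), which encodes β-catenin, had 291, 279, 284 and 285 CPM with DMSO and 268, 279, 278 and 277 CPM with STM2457. The arms overlapped at one library each and the log2 fold change of -0.05 (SE 0.02) did not pass (edgeR adjusted p = 0.114). CTNNB1 RNA did pass as lower with DESeq2 (-0.06, adjusted p = 0.0456) and with spike-in scaling (-0.24, edgeR adjusted p = 0.00023). GSK3B (ENSG00000082701.15), a kinase that phosphorylates β-catenin, had 83.0, 82.4, 82.1 and 77.8 CPM with DMSO and 81.9, 82.6, 72.4 and 78.9 CPM with STM2457. STM2457 replicate 3 was low, the arms overlapped, and the change did not pass (log2 -0.04, SE 0.04, edgeR adjusted p = 0.428). GSK3B was lower with spike-in scaling (-0.24, edgeR adjusted p = 0.000395).

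GSK3A and the priming kinase CSNK1A1 had log2 fold changes of -0.001 and -0.08 and did not pass. Both were lower with spike-in scaling (-0.20, edgeR adjusted p = 0.00228, and -0.27, edgeR adjusted p = 4.53e-05). The Dishevelled genes, whose proteins carry the signal from Frizzled, were not alike in their calls. DVL2 (ENSG00000004975.12) had 62.6, 64.2, 67.6 and 68.8 CPM with DMSO and 55.4, 54.3, 60.7 and 58.8 CPM with STM2457. The arms were apart, and DVL2 fell by 0.20 on the log2 scale (SE 0.04, edgeR adjusted p = 0.00176). DVL1 (0.01) and DVL3 (-0.02) did not pass and their arms overlapped. Both were lower with spike-in scaling (-0.18, edgeR adjusted p = 0.00654, and -0.21, edgeR adjusted p = 0.00128).

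Among the 5 nuclear factors 1 rose, 1 fell and 3 did not pass (26.2% of all genes higher and 21.6% lower). BCL9 (ENSG00000116128.11), an adaptor that links β-catenin to Pygopus, had 63.3, 63.8, 62.3 and 63.7 CPM with DMSO and 129.7, 122, 119 and 121 CPM with STM2457. The arms were far apart, with STM2457 replicate 1 the highest, and the rise was 1.94-fold (log2 0.96, SE 0.03, edgeR adjusted p = 1.29e-10). TCF7, a DNA-binding partner of β-catenin, fell by 0.19 (SE 0.04, edgeR adjusted p = 0.00271); its DMSO libraries lay between 23.2 and 25.9 CPM and its STM2457 libraries between 21.1 and 21.7 CPM. The other partners TCF7L1, TCF7L2 and LEF1 had log2 fold changes of 0.07, 0.08 and 0.07, with overlapping arms, and did not pass. Of the secretion factors, PORCN, which attaches a lipid to WNT ligands, had log2 fold change 0.0008, and WLS, which carries them to the surface, -0.04. Neither passed. WLS was lower with spike-in scaling (-0.24, edgeR adjusted p = 0.000287) and on the RNA signal of the series table (-0.11, limma adjusted p = 0.00265). Over all members the STM2457 libraries lay entirely above the DMSO libraries in 15 genes, against 24.9% of all genes tested, and entirely below in 2, against 19.8%.

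Ribosome footprints, the mRNA fragments covered by ribosomes, were higher for FZD2, FZD8, ZNRF3 and BCL9 and lower for APC and DVL2. Footprints of 34 members were tested with limma on log2(signal + 1) over 10906 genes, and all 34 had passed the filter on low values with mean recovered reads per library of 18.5 to 3622. The 4 members higher compare with 9.59% of all genes and the 2 lower with 6.13%; 28 did not pass. Before adjustment, 8 were higher and 4 lower at p under 0.05, but the share of all genes at that level was not counted. edgeR on the recovered reads called 4 higher (10.2% of all genes) and 2 lower (5.57%). The median log2 fold change was 0.06 over the members and -0.02 over all genes. With 2 libraries per arm these calls rest on spread borrowed from other genes of like abundance: limma without that trend, chosen after seeing the data, called 0 members higher and 0 lower.

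FZD8 footprint signal, in the normalized units of the series table, was 502 and 516 with DMSO and 839 and 976 with STM2457. Both STM2457 libraries were above both DMSO libraries (log2 fold change 0.83, SE 0.15, limma adjusted p = 5.37e-05), on 156 and 107 recovered reads with DMSO and 221 and 250 with STM2457. FZD2 had signal of 267 and 313 with DMSO and 456 and 633 with STM2457, with no overlap and STM2457 replicate 2 the highest (log2 0.89, SE 0.20, limma adjusted p = 0.000704). Without that library the FZD2 change was 0.65 and did not pass (limma adjusted p = 0.0726).

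The adaptor BCL9 had footprint signal of 499 and 617 with DMSO and 915 and 980 with STM2457. The arms did not overlap (log2 0.77, SE 0.15, limma adjusted p = 0.000142). ZNRF3 had 402 and 342 with DMSO and 581 and 551 with STM2457, also apart (log2 0.61, SE 0.18, limma adjusted p = 0.0141). ZNRF3 did not pass without DMSO replicate 2 (0.49, limma adjusted p = 0.19) or without STM2457 replicate 1 (0.57, limma adjusted p = 0.0825). RNA and footprints were thus both called higher in 4 of the 34 members, which is 11.8%, against 9.27% of the 10864 genes tested in both.

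APC, whose RNA was higher relative to gene counts, had footprint signal of 766 and 776 with DMSO and 517 and 484 with STM2457. Both STM2457 libraries were below both DMSO libraries, and APC footprints fell by 0.62 on the log2 scale (SE 0.16, limma adjusted p = 0.00342), on 238 and 161 recovered reads with DMSO and 136 and 124 with STM2457. The call for APC, like those for BCL9 and FZD8, was kept when any 1 of the 4 footprint libraries was left out. DVL2 had 1686 and 1769 with DMSO and 1299 and 1378 with STM2457. The arms were apart and its footprints fell by 0.37 (SE 0.12, limma adjusted p = 0.0235). That call was lost without DMSO replicate 1 (limma adjusted p = 0.077), DMSO replicate 2 (0.204) or STM2457 replicate 1 (0.0939).

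**Figure D3:**
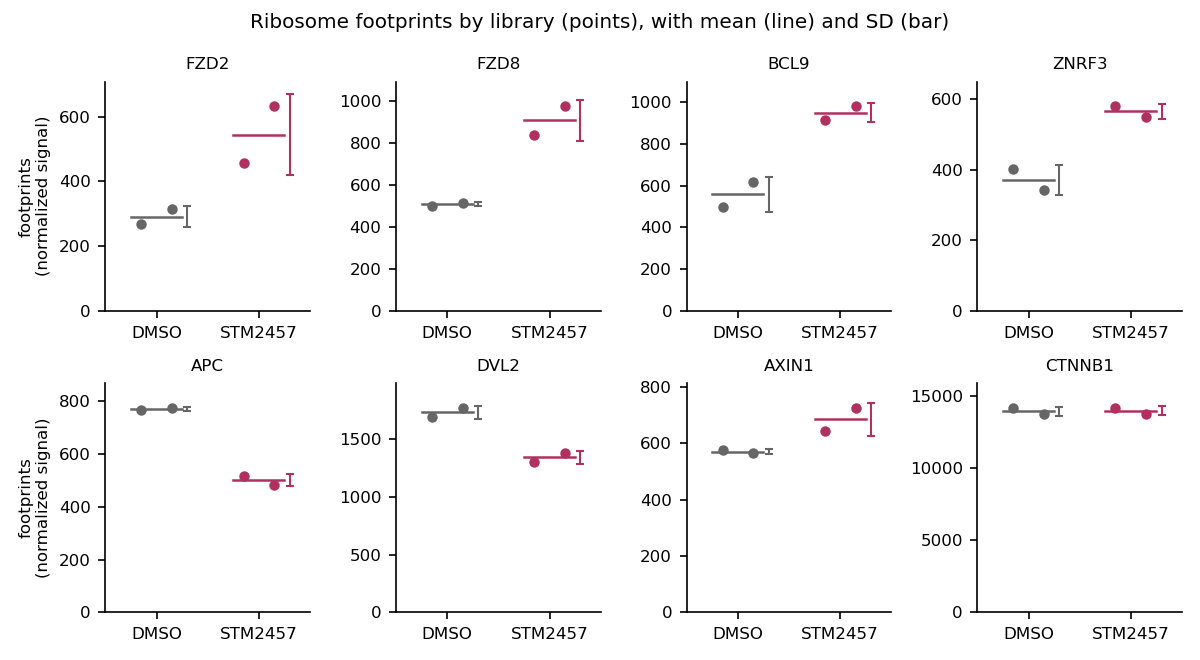
Ribosome footprint signal of 8 WNT genes, in the normalized units of the series table, for each library (points; 2 per arm), with the mean as a line and the SD as a bar, on axes that start at 0. The arms are apart in 7 panels and overlap for CTNNB1; the 2 lower genes are APC and DVL2, and AXIN1 did not pass the test.

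β-catenin itself rested on many footprint reads, 4389 and 2843 with DMSO and 3731 and 3523 with STM2457. CTNNB1 signal was 14126 and 13702 with DMSO and 14170 and 13755 with STM2457, overlapping, with a log2 fold change of 0.005 (SE 0.08, limma adjusted p = 0.978). AXIN1 had 576 and 564 with DMSO and 642 and 726 with STM2457, and although the arms were apart the change of 0.26 (SE 0.16, limma adjusted p = 0.303) did not pass. LRP6 had 657 and 501 with DMSO and 691 and 488 with STM2457, overlapping (log2 0.02, SE 0.17). GSK3B and AXIN2 had footprint changes of -0.08 (SE 0.14) and -0.13 (SE 0.32), with overlapping arms.

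Of the other receptors, FZD1 (0.54), FZD5 (0.55) and ROR2 (0.89) had both STM2457 libraries above both DMSO libraries but did not pass, and FZD3 (-0.61) had both below and did not pass. FZD4 rested on 16 to 49 recovered reads per library, and its footprint change was 0.52 (SE 0.41). It was 1.30 without STM2457 replicate 2 and -0.25 without STM2457 replicate 1. Over the 34 members the footprint libraries lay entirely above in 12, against 25.7% of all genes, and entirely below in 5, against 28.4%.

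Translation efficiency, the footprint signal divided by the RNA signal of the same gene, asks whether footprints moved by more or less than RNA. By limma with a weight per assay, 0 members were higher, against 0.229% of all genes, and 0 lower, against 0.807%. Before adjustment 2 were higher and 4 lower at p under 0.05, but the share of all genes at that level was not counted. The edgeR interaction on RNA counts and recovered footprint reads called 0 higher (0.862% of all genes) and 4 lower (3.92%): AXIN1, APC, ZNRF3 and FZD3. Limma with 1 spread shared by both assays called the same 4 lower (4.46%) and ROR2 higher (3.11%). ROR2 rested on 10 to 27 recovered reads per library. The shared-spread fit had made many false calls on simulated data in earlier work on these data and was kept only as an alternative.

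Of these 4 members, AXIN1 and ZNRF3 had footprint log2 fold changes above 0 (0.26 and 0.61), and APC and FZD3 had values below 0 (-0.62 and -0.61). The RNA signal of the series table, on which the limma efficiency fits rest, had a log2 fold change of 0.12 for APC and did not pass (limma adjusted p = 0.0583). For APC the footprint signal of each library over the mean RNA signal of its arm was 0.612 and 0.620 with DMSO and 0.378 and 0.354 with STM2457. The arms were apart and the change was -0.75 (SE 0.19, adjusted p = 0.0845) by weighted limma and -0.81 (SE 0.15, adjusted p = 0.0066) by edgeR. With RNA-seq replicates 1 and 2 only, APC passed the weighted limma fit as well (adjusted p = 0.0227). For AXIN1 the ratios were 0.397 and 0.388 with DMSO and 0.264 and 0.298 with STM2457. These arms were apart too, with -0.49 (SE 0.13, adjusted p = 0.0977) by weighted limma and -0.53 (SE 0.10, adjusted p = 0.00815) by edgeR.

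ZNRF3 had ratios of 0.615 and 0.523 with DMSO and 0.409 and 0.388 with STM2457. The 2 fits gave -0.51 (SE 0.13, limma adjusted p = 0.0909) and -0.52 (SE 0.11, edgeR adjusted p = 0.0107). FZD3 had ratios of 0.791 and 1.05 with DMSO and 0.569 and 0.430 with STM2457, on 47 to 87 recovered reads per library. Its values were -0.88 (SE 0.21, limma adjusted p = 0.0608) and -0.87 (SE 0.19, edgeR adjusted p = 0.0132). In FZD2, FZD8 and BCL9, whose RNA and footprints both rose, efficiency changed by 0.08 (SE 0.24), 0.06 (SE 0.27) and -0.12 (SE 0.13), within their errors of 0. Among the other members higher in RNA, weighted limma gave -0.42 (SE 0.28) for AXIN2, -0.38 (SE 0.23) for LRP6 and -0.36 (SE 0.25) for FZD1. It gave -0.02, 0.13, 0.14 and 0.10 for FZD4, FZD5, LGR4 and NKD1. None of these passed by weighted limma or by edgeR, where LRP6 had -0.55 (SE 0.17, adjusted p = 0.0765). The efficiency of CTNNB1 changed by 0.10 (SE 0.09) and did not pass.

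**Figure D4:**
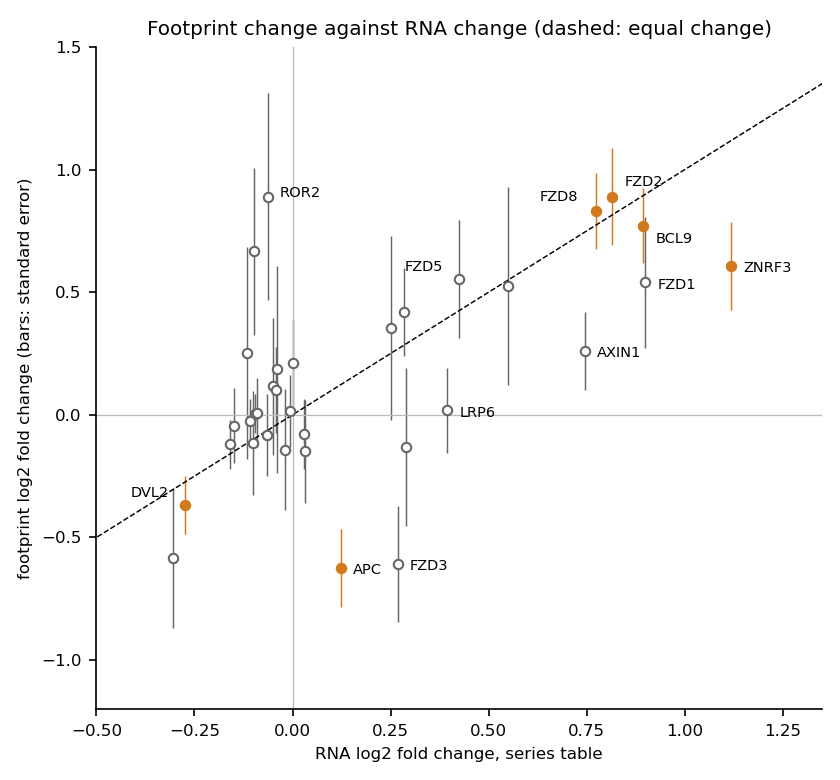
Footprint log2 fold change (with standard error) against the RNA log2 fold change of the series table for 34 WNT genes; filled points have a footprint adjusted p under 0.05, and the dashed line marks equal change. FZD2, FZD8 and BCL9 lie near the line at the upper right, and ZNRF3, AXIN1, APC and FZD3 lie below it. Others also lie below it, among them LRP6, FZD1 and AXIN2, which no efficiency fit called.

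The members differed widely in efficiency without the drug. In the authors' deposited table the DMSO efficiency of RYK was 0.163, of DVL1 0.262, of LRP5 0.292 and of AXIN1 0.385, the lowest 4 of the 34. At the other end, the authors' deposited table gave 1.86 for FZD7, 2.19 for WLS and 2.51 for CTNNB1, the highest. Of the 34 members, 20 were in the authors' deposited table under the median of all genes, 1.01. Within the destruction complex the authors' deposited table put CTNNB1 and GSK3B (1.58) above AXIN1, APC (0.606), AXIN2 (0.622) and GSK3A (0.710). The Dishevelled genes were spread in the authors' deposited table from 0.262 for DVL1 through 0.623 for DVL3 to 1.34 for DVL2. With STM2457 the authors' deposited table gave 0.376 for APC, 0.283 for AXIN1, 0.397 for ZNRF3 and 0.494 for FZD3. The DMSO libraries of neighbours in this order overlapped for many genes, such as ZNRF3 and LGR4 (0.615 and 0.523, and 0.492 and 0.570), so the order among neighbours is not resolved.

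**Figure D5:**
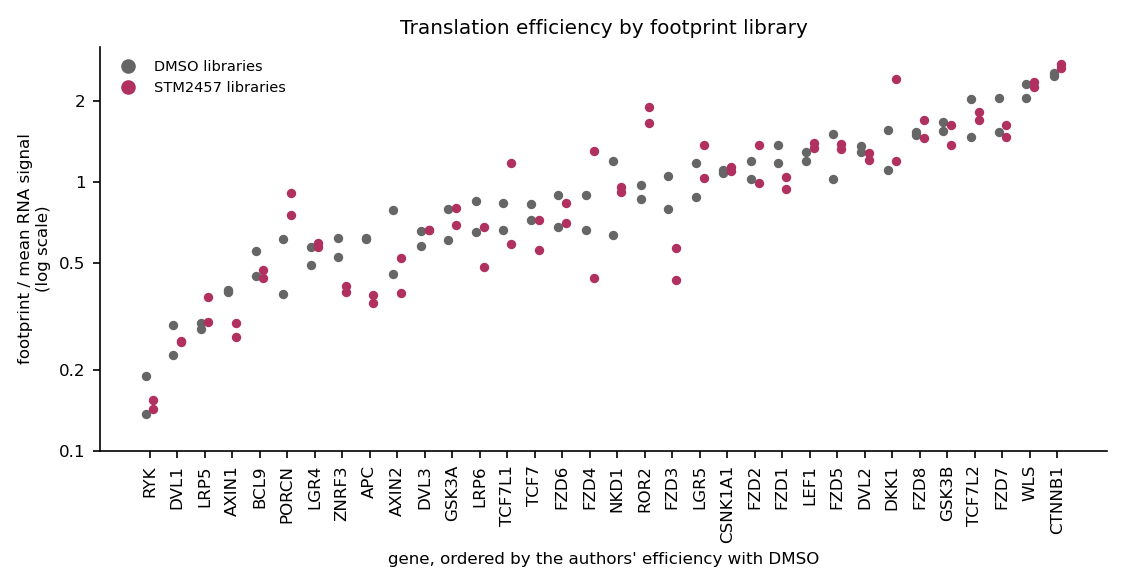
Translation efficiency of 34 WNT genes on a log axis, as the footprint signal of each library over the mean RNA signal of its arm (grey, 2 DMSO libraries; red, 2 STM2457 libraries), ordered by the authors' DMSO efficiency. RYK is the lowest and CTNNB1 the highest. The red points of AXIN1, ZNRF3, APC and FZD3 lie below the grey ones, as do those of FZD1 and DVL2.

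Other genes of the pathway, from a list of 121 symbols of which 119 had an Ensembl identifier, were examined in the same fits. This list too was chosen with earlier results of these data known. Of 102 tested for RNA, 42 were higher and 14 lower (26.2% and 21.6% of all genes), with 27 higher and 38 lower by spike-in scaling (12.1% and 47.1%). For footprints 13 of 80 were higher and 2 lower (9.59% and 6.13% of all genes). By weighted limma, efficiency was higher in 1 of 80 and lower in 0 (0.229% and 0.807% of all genes). The higher one was CELSR3, a planar polarity cadherin (log2 1.73, SE 0.38, adjusted p = 0.0403, on 5 to 28 recovered reads per library). CELSR3 did not pass by edgeR (adjusted p = 0.0806). The edgeR fit called 0 higher (0.862% of all genes) and 3 lower, FZD9, MACF1 and CSNK1G2. These are 3.75% of the 80, near the 3.92% of all genes. CELSR3, MACF1 and CSNK1G2 were named after their values were seen.

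The receptors outside the members showed 4 of 8 tested genes higher and 1 lower in RNA (26.2% and 21.6% of all genes). FZD9 rose 1.91-fold, from 12.6 ± 0.335 to 24.0 ± 0.511 CPM (SD, n = 4 per arm; edgeR adjusted p = 1.76e-09), FZD10 1.98-fold (adjusted p = 2.46e-06) and the receptor ROR1 1.57-fold (adjusted p = 1.7e-06). None of the 8 passed for footprints by limma (9.59% of all genes higher and 6.13% lower) or by edgeR (10.2% and 5.57%). With 8 genes a count of 0 cannot be told from those shares. Before adjustment 0 were higher and 0 lower by limma, and 1 was higher by edgeR. The share of all genes before adjustment was not counted. The 13 tested WNT ligands had 4 higher (30.8%) and 2 lower (15.4%) in RNA, near the shares of all genes. WNT7B, at 1.02 ± 0.170 CPM with DMSO, was 1.57-fold higher (edgeR adjusted p = 0.00169). Of 12 secreted modulators 0 were higher and 2 lower by edgeR (26.2% and 21.6% of all genes). Before adjustment 0 were higher, but the share of all genes at that level was not counted.

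In the turnover group 7 of 21 (33.3%) were higher and 3 (14.3%) lower, shares near those of all genes, 26.2% and 21.6%. RNF146, the ubiquitin ligase that degrades tankyrase-modified AXIN, rose 2.20-fold, from 36.8 ± 0.829 to 81.1 ± 3.89 CPM (edgeR adjusted p = 1.59e-10), and its footprints rose by 1.04 (SE 0.17, limma adjusted p = 3.08e-06). SIAH1, a ligase that can degrade β-catenin, rose 1.96-fold (edgeR adjusted p = 2.02e-10). Of 20 other nuclear genes 11 were higher and 1 lower, beside the same 26.2% and 21.6% of all genes. The higher ones included the coactivators CREBBP (1.80-fold) and EP300 (1.61-fold) and the BCL9 partner PYGO1 (1.63-fold). Of 18 other intracellular modulators 7 were higher and 5 lower (26.2% and 21.6% of all genes), with VANGL1 1.82-fold, PRICKLE1 1.57-fold and DACT1 1.62-fold higher.

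Genes known as β-catenin targets, other than the members, had 9 of 12 higher and 1 lower for RNA (26.2% and 21.6% of all genes), and 5 of 9 higher and 0 lower for footprints (9.59% and 6.13%). Their median RNA log2 fold change was 0.54, and 0.34 with spike-in scaling, where 7 were higher and 1 lower (12.1% and 47.1% of all genes). MYC, a growth regulator, rose from 128 ± 2.46 to 308 ± 9.31 CPM (2.41-fold, edgeR adjusted p = 9.07e-12), BAMBI, a TGF-β pseudoreceptor, 3.23-fold (adjusted p = 8.16e-11) and ID2, an inhibitor of helix-loop-helix factors, 2.06-fold (adjusted p = 7.52e-10). These genes are also known as targets of other pathways. The list was chosen with earlier results of these data known, so its counts beside the shares of all genes are descriptive. The induced feedback inhibitors AXIN2, NKD1 and DKK1 are members and not counted here. Their RNA log2 fold changes were 0.23, 0.33 and 0.09, and none of them passed with spike-in scaling (0.03, 0.13 and -0.11). The other tested members among the feedback genes and modulators, ZNRF3, LGR4, LGR5 and RNF43, had 1.11, 0.34, 0.10 and -0.28. Of the TCF and LEF members, TCF7 was lower (-0.19, edgeR adjusted p = 0.00271). TCF7L1, TCF7L2 and LEF1 (0.07, 0.08 and 0.07) did not pass.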

How the data were processed

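RNA-seq (4 libraries per arm) and ribosome profiling (2 per arm) of HEK293T cells were compared, STM2457 against DMSO. The members and gene lists were chosen with earlier results of these data known. The authors deposited raw counts per gene with counts of 92 ERCC spike-ins. The authors also deposited a table of 12224 genes with normalized signal per library, the authors' translation efficiency as a ratio of mean footprint to mean RNA signal (RNA means of replicates 1 to 3), and its log2 change. The genome build was GRCh38.p12 and the aligner and counter named are STAR (2.7.3a) and featureCounts (Subread 2.0.3), with UMI-tools (1.1.2) also listed, per the submitters' processing notes; roles and the strand setting are not given in the sources used here. The table's RNA columns are not proportional to the gene counts, and the part of the gene they count is not given in the sources used here.

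RNA was tested with edgeR 4.0.16 in R 4.3.3 on gene counts alone, with TMM factors, filterByExpr, a quasi-likelihood test and a Benjamini-Hochberg adjusted p under 0.05. CPM values use TMM factors, and SE is the log2 fold change over the square root of F. Footprints were tested with limma 3.58.1 on log2(signal + 1), and these fold changes are on that scale. The filter kept genes with 10 or more recovered reads on average; 100% of footprint values were within 0.1 of a whole multiple of 1 read. The fits let the variance follow the mean, a setting chosen with earlier results known. Efficiency was the interaction of assay and treatment in limma with a weight per assay (RNA 1.95, footprints 0.263). Alternatives were DESeq2 1.42.0, spike-in scaling, filters, a pseudocount of 8, a replicate block, subsets of libraries, edgeR on recovered reads and limma on the table's RNA signal. The main RNA, footprint and efficiency fits and the shared-spread efficiency fit were also run on simulated data. The other alternatives, among them the edgeR interaction, were not.

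Members were described in every library where RNA passed at 1.5-fold or more, or where footprints or efficiency passed, and CTNNB1, APC, AXIN1, AXIN2, GSK3B, LRP6, ZNRF3 and RNF43 in any case; of other pathway lists at most 3 genes with the smallest RNA p at 1.5-fold or more were named. Promoters are RefSeq's on GRCh38.p14. Gene lengths were not used, so CPM and read numbers of different genes are not levels per length. The symbols TIKI1 and T matched no identifier.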

Additional observations from a re-analysis of the deposited data

Results flagged for a closer look

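In 2 of the 70 sets of 4 RNA libraries examined (each member in each arm), 1 library stood apart from the other three by a gap larger than Dixon's 95% limit of 0.829 of the range; chance gives about 1 in 20 such sets. DVL1 RNA was 134 CPM (133.92) in STM2457 replicate 3, against 123 CPM (122.59 to 123.12) in the other STM2457 libraries. DVL3 RNA was 85.5 CPM in STM2457 replicate 2, against 90.7 to 91.6 CPM in the others. Neither gene was called changed with all libraries, and neither was called when that library was left out (log2 fold change -0.02 for DVL1 and 0.006 for DVL3).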

How the results depend on the processing

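The 14 members higher in RNA numbered 10 to 16 over all alternatives. The 2 lower (21.6% of all genes) became 4 with DESeq2 and 12 with spike-in scaling without STM2457 replicate 4, where shares of all genes were not counted. They became 13 with spike-in scaling, 37.1% of the members tested against 47.1% of all genes. With limma on the table's RNA signal they became 7, 20.6% against 34.6%. Other pathway genes higher (42) became 27 with spike-in scaling (12.1% of all genes). Those lower (14) became 38 with spike-in scaling (47.1% of all genes) and 28 without STM2457 replicate 4 as well. They became 7 with replicates 3 and 4 only (15.4% of all genes), and 9 to 14 when 1 RNA library was left out. Spike-in scaling, which lowers all genes by about the median shift of -0.19, put LRP5 (-0.13), RYK (-0.14), DVL1 (-0.18) and APC (-0.0056) below 0, and with STM2457 replicate 4 also left out RYK (-0.11), DVL1 (-0.14) and APC (-0.0013). APC was not called in either (edgeR adjusted p = 0.945 and 0.988).

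Footprint calls without the variance trend fell to 0 members higher and 0 lower, 5 and 1 other pathway genes, and 232 of 1715 genes. Leaving out 1 footprint library gave 1 to 2 members lower, 1 to 2 other pathway genes lower, and 1007 (without DMSO replicate 2) to 1463 genes in all. For efficiency, a shared spread gave 1 member higher and 4 lower, edgeR 4 lower, and RNA replicates 1 and 2 only 1 lower. Among other pathway genes, the 1 higher became 4 with a shared spread, 0 with edgeR, 0 without the low-value filter, 0 without the trend and 0 to 1 with 1 footprint library left out. The 0 lower became 4 with a shared spread, 3 with edgeR, 1 with RNA replicates 1 and 2 only and 1 without the trend. Over all genes 113 calls became 825, 522 and 70 with a shared spread, edgeR and no trend, and 37 to 101 with 1 footprint library left out. The cause was not tested.

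The labels do not pair libraries by replicate number. Deviations of same-numbered RNA libraries correlated at 0.15, 0.23, 0.15 and 0.08, 3 of 4 best with their own number, and footprint libraries at 0.006. A replicate block gave 14 members higher and 3 lower in RNA, the one gained being CSNK1A1 (-0.08, edgeR adjusted p = 0.0186, against 0.071 without the block), 4 and 2 in footprints, and 1 other pathway gene lower in efficiency. Of 1239 values of single members under alternatives, 1076 kept direction and call, 41 gained a call and 19 lost a call. Another 96 changed sign with no call in either fit, and 7 changed sign with a call in at least 1 of the fits. The size of a change was not compared. Standard errors of footprint changes were 0.41 to 0.43 for FZD4, ROR2, LGR5 and DKK1, each on 10 to 49 recovered reads per library, 0.32 to 0.37 for AXIN2, PORCN and NKD1, on 15 to 57, and 0.08 for CTNNB1, on 2843 to 4389.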
